A study of Mus musculus with 8 samples.

Results

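*Zfp292*, *Ckap4*, *Rap2b*, *Traf4* and *Sulf2* are 5 of the 8 genes that the study picked as bearers of the RNA mark m6A and overexpressed by electroporation in newborn mouse retina. The other 3 are *Nxt1*, *Apex1* and *Bcl7a*. Members were taken by gene symbol, and each of the 5 matched 1 of the 54532 genes counted. Their RNA was read by bulk RNA-seq in 4 *Mettl3*-CKO samples (*Six3-Cre*+; *Mettl3* floxed/floxed, labelled Mettl3 knockout) and 4 littermate control samples, all retina labelled postnatal day 7, while the methods section gives an age 1 day younger. The genotype of the littermates is given only as control. *Six3-Cre* acts in retinal progenitor cells (RPCs), so that cells of other origin such as vessels and microglia are not its targets, and loss of METTL3 protein was shown in the central retina. The m6A mark itself was not measured in these samples, and the study chose the 5 genes for higher RNA in *Mettl3*-CKO clusters of RPCs and Müller glia in its single-cell data, which were not analysed here. In other retinas the study mapped m6A near the stop codon of all 8 genes, and antibody pull-down with qPCR gave less m6A on them in *Mettl3*-CKO. At postnatal day 1 it measured longer RNA half-lives in *Mettl3*-CKO retinas for 5 of the 8, *Zfp292*, *Ckap4*, *Traf4* and *Bcl7a* among them.

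m6A is written on messenger RNA by a complex whose catalytic subunit is METTL3. It is placed within a short sequence context, most often near the stop codon and in long exons, and reader proteins that bind it can speed the decay of the transcript. In the developing retina, late RPCs divide, give rise to rods, bipolar and amacrine cells, and finally become Müller glia. The 5 genes act at different places in the cell. *Zfp292* encodes a large nuclear zinc-finger protein and *Ckap4* an integral membrane protein of endoplasmic reticulum sheets. *Rap2b* encodes a small GTPase of the Ras superfamily, *Traf4* an adaptor of receptor signalling, and *Sulf2* an extracellular enzyme that removes 6-O-sulfate from heparan sulfate.

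To show where the preferred m6A context lies in these mRNAs, the motif GGACT was searched on the sense strand of one coding transcript per gene (GENCODE vM21, GRCm38), in a window of 403 bases made of the stop codon and 200 bases on either side. The window of each of the 5 mRNAs held the motif, with 2 matches in *Zfp292* and 1 in each other gene. The sites are printed 5′ to 3′ as DNA letters with the motif in capitals and 10 bases on each side, since they show where the preferred context falls around each stop codon.
Zfp292 before the stop codon: aatccagataGGACTgttttaaaag
Zfp292 after the stop codon: tatccctatgGGACTtgaacagaat
Ckap4 before the stop codon: aaaatgctcaGGACTgccgtggaca
Rap2b before the stop codon: gcaacaaggtGGACTtggagggtga
Traf4 after the stop codon: aagggaggcgGGACTggatctgaaa
Sulf2 after the stop codon: gacagcgcctGGACTttccgatgct
The first *Zfp292* site lies in coding sequence of exon 8 at chr4:34805002-34805026 (minus strand) and the second in the 3′ UTR at chr4:34804775-34804799. The *Ckap4* site is coding sequence of exon 2 at chr10:84527604-84527628 (minus strand). The *Rap2b* site is coding sequence of its only exon at chr3:61365400-61365424 (plus strand). The *Traf4* site is 3′ UTR in exon 7 at chr11:78159866-78159890 (minus strand), and the *Sulf2* site is 3′ UTR in exon 21 at chr2:166074614-166074638 (minus strand).

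Among 12487 tested genes with a full window, 40.8% held GGACT in it, and 33.1% held the reverse complement AGTCC, which none of the 5 windows contained. Over the whole mRNA the motif occurred 7 times in *Zfp292*, 5 times in *Ckap4*, 9 times in *Rap2b*, 3 times in *Traf4* and 6 times in *Sulf2*, against a median of 3 per mRNA. Per kilobase the counts were 0.701, 1.62, 1.32, 1.44 and 1.31, against a median of 1.06, so *Zfp292* was the least dense despite its many matches. A match is a description of letters and does not show that a base is methylated.

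**Figure D1:**
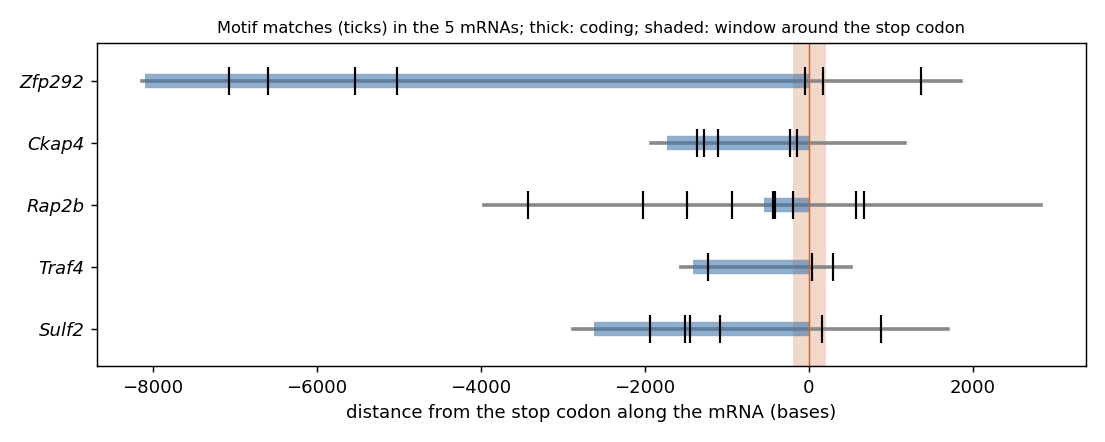
Each line is one mRNA drawn to scale along the distance in bases from its stop codon, with the coding sequence thick, ticks at each match to the motif and the 403-base window shaded. Each of the 5 mRNAs has at least 1 match inside the window, and 2 of the 7 matches of *Zfp292* lie there.

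The gene models differed widely in their exons. In all 5 the stop codon lay in the last exon, as it did in 95.9% of 14274 tested genes with a coding transcript, and that exon was the longest of the mRNA. *Zfp292* carried 89.4% of its 9986-base mRNA in 1 exon of 8931 bases, longer than the longest exon of 99.4% of these genes. *Rap2b* is a single exon of 6793 bases in GENCODE (98.1st percentile), and the second exon of *Ckap4* has 2473 bases (72.6th percentile). The RefSeq annotation gives *Rap2b* a shorter span of 4197 bases that starts at 61364507. Its exon percentile, level per length and motif count therefore rest on the longer model used here. The longest exons of *Sulf2* (1730 bases, among 21 exons) and *Traf4* (1149 bases, among 7) lay at the 57.5th and 41.2nd percentiles. Over the tested genes the median longest exon was 1431 bases, and the median exon with the stop codon was 1317 bases. In how many of these genes the last exon is the longest was not counted.

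Library totals ranged from 16227095 to 20281517 counts. *Mettl3*, the targeted gene, was at 21.1 to 29.6 CPM in *Mettl3*-CKO samples and at 29.3 to 33.8 CPM in controls, so that the ranges overlapped (log2 fold change -0.38 ± 0.12 SE, adjusted p = 0.0602 from edgeR). These counts cover the whole gene, deleted exons or not. Control replicate 4 held most of the lens RNA, with 4514 CPM summed over 12 lens markers against 4.66 to 75.5 CPM in the other 7 samples. Control replicate 1 had the highest summed rod markers (4867 CPM against 2036 to 4067 CPM). CPM are counts scaled to a fixed library size, and marker sums use the library total.

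In *Mettl3*-CKO retinas 4 of the 5 genes rose and *Sulf2* did not pass the test. *Zfp292* rose 2.03-fold, *Ckap4* 1.70-fold, *Rap2b* 1.58-fold and *Traf4* 1.49-fold, and for each of these 4 all *Mettl3*-CKO samples lay above all controls. *Sulf2* was 1.13-fold of the control level with overlapping groups. Genes were tested by the quasi-likelihood method of edgeR over the 17998 that passed a filter on low counts, all 5 among them, with p-values adjusted by Benjamini-Hochberg. It called 6.49% of these genes higher and 10.5% in either direction. Groups did not overlap in 17.4% of all tested genes, and with *Mettl3*-CKO higher in 9.77%. Without *Mettl3*-CKO replicate 1, 2 of the 5 genes were called higher, *Zfp292* and *Ckap4*, beside 509 of all 18329 genes tested in that fit. The median log2 fold change was 0.66 over the 5 genes and -0.01 over all tested genes. Whether more cells of a type or more RNA per cell raised a value cannot be told apart in bulk tissue. Levels are given below in CPM after edgeR's TMM scaling, with SD over n = 4 samples, and log2 fold changes with their standard error (SE).

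**Figure D2:**
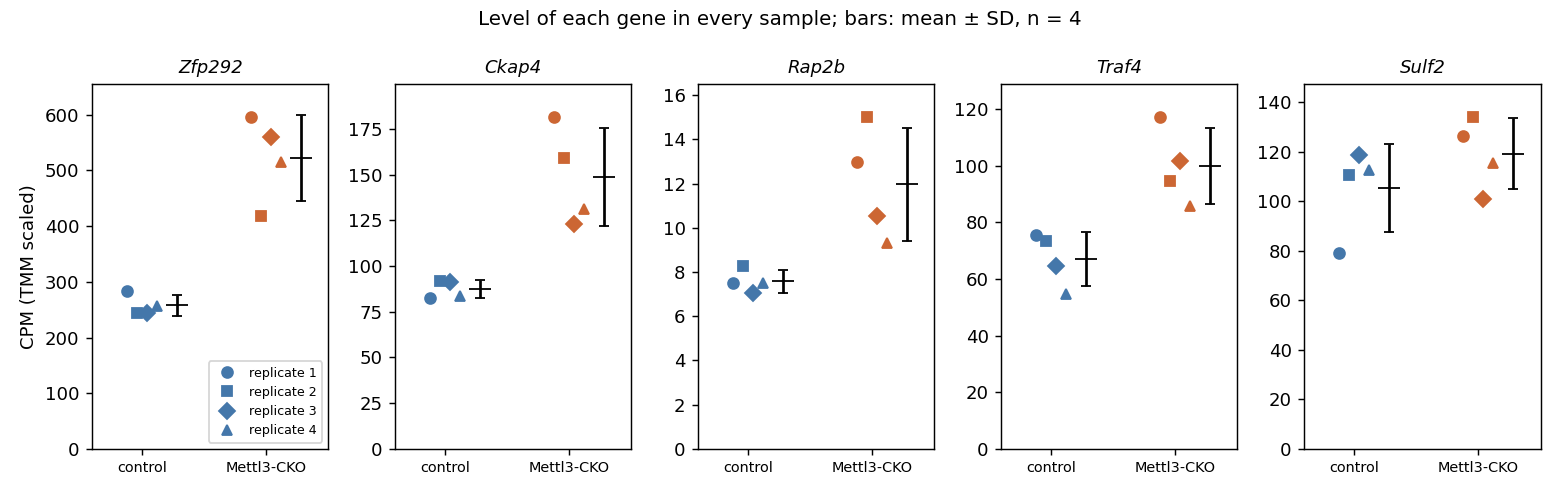
CPM of each gene in every sample (symbols by replicate number), with the group mean and SD beside the points (n = 4 per group). The 4 *Mettl3*-CKO points lie above the 4 control points for *Zfp292*, *Ckap4*, *Rap2b* and *Traf4*, and the groups overlap for *Sulf2*.

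*Zfp292* (ENSMUSG00000039967, chromosome 4 from 34803113 to 34882960) was at 284, 245, 245 and 257 CPM in control replicates 1 to 4 and at 596, 418, 561 and 516 CPM in *Mettl3*-CKO replicates 1 to 4. The lowest *Mettl3*-CKO sample, replicate 2, still exceeded the highest control by 134 CPM. Means were 258 ± 18.4 and 523 ± 77.2 CPM, a log2 fold change of 1.02 ± 0.11 SE (adjusted p = 0.000317, edgeR). It ranked 28 by p among the 1168 genes called higher, of which 200 had a larger fold change. With 3998 to 10784 counts per sample, counting error was at most 1.58%.

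*Ckap4* (ENSMUSG00000046841, chromosome 10 from 84526305 to 84534062) was at 82.7, 91.7, 91.4 and 83.8 CPM in controls and at 182, 159, 123 and 131 CPM in *Mettl3*-CKO samples. The controls lay close together, with a coefficient of variation of 5.52% against 18.1% in *Mettl3*-CKO samples. The highest level was that of *Mettl3*-CKO replicate 1. Means were 87.4 ± 4.82 and 149 ± 26.9 CPM, a log2 fold change of 0.77 ± 0.12 SE (adjusted p = 0.00213, edgeR).

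*Rap2b* (ENSMUSG00000036894, chromosome 3 from 61361638 to 61368430) was the least counted of the 5, with 124 to 259 counts per sample and a counting error of up to 8.98%. It was at 7.49, 8.27, 7.03 and 7.49 CPM in controls and at 13.0, 15.0, 10.5 and 9.33 CPM in *Mettl3*-CKO samples. The gap between the groups was 1.07 CPM, set by *Mettl3*-CKO replicate 4 and control replicate 2. Means were 7.57 ± 0.513 and 11.97 ± 2.54 CPM, a log2 fold change of 0.66 ± 0.16 SE (adjusted p = 0.0204, edgeR). This call was lost when control replicate 3 was left out (adjusted p = 0.0535), or *Mettl3*-CKO replicate 1 (0.0750) or replicate 2 (0.0559). The gene *B430305J03Rik* lies within *Rap2b* on the opposite strand over 3702 of its 6793 bases and is listed at 0 in all 8 samples, and since use of strand in counting is not given, reads in that stretch cannot be assigned with certainty.

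*Traf4* (ENSMUSG00000017386, chromosome 11 from 78158499 to 78165589) was at 75.7, 73.5, 64.5 and 54.6 CPM in controls and at 117, 94.5, 102 and 85.7 CPM in *Mettl3*-CKO samples. The spread was alike in both groups, with coefficients of variation of 14.4% and 13.4%, and the groups were parted by 9.95 CPM. Means were 67.1 ± 9.65 and 99.8 ± 13.4 CPM, a log2 fold change of 0.57 ± 0.12 SE (adjusted p = 0.0123, edgeR). Without *Mettl3*-CKO replicate 1 the adjusted p was 0.0550.

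*Sulf2* (ENSMUSG00000006800, chromosome 2 from 166073089 to 166155663) was at 79.1, 111, 119 and 113 CPM in controls and at 127, 134, 101 and 116 CPM in *Mettl3*-CKO samples. Control replicate 1 was the lowest of the 8 samples, and *Mettl3*-CKO replicate 3 lay below 3 of the 4 controls. Means were 105 ± 17.8 and 119 ± 14.4 CPM, a log2 fold change of 0.18 ± 0.13 SE (adjusted p = 0.436, edgeR). One SE on either side spans folds of 1.04 to 1.24. Without control replicate 1 the log2 fold change was 0.07 (adjusted p = 0.670). A p of this size does not show that the levels were equal.

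Of the 3 other overexpressed genes, *Nxt1*, which encodes a cofactor of mRNA export, and *Apex1*, which encodes the main endonuclease for abasic sites in DNA, also rose. Their log2 fold changes were 1.53 ± 0.15 SE and 0.79 ± 0.12 SE (adjusted p = 0.000227 and 0.00204, edgeR). *Bcl7a*, a subunit of the BAF chromatin remodelling complex, was at 150 to 267 CPM in controls and at 215 to 227 CPM in *Mettl3*-CKO samples, a log2 fold change of -0.01 ± 0.15 SE (adjusted p = 0.973). *Sulf2* and *Bcl7a* were thus the 2 of the 8 genes with no call, and in both the lowest control was replicate 1. Leaving that sample out lowered both log2 fold changes, to 0.07 for *Sulf2* and -0.16 for *Bcl7a*.

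**Figure D3:**
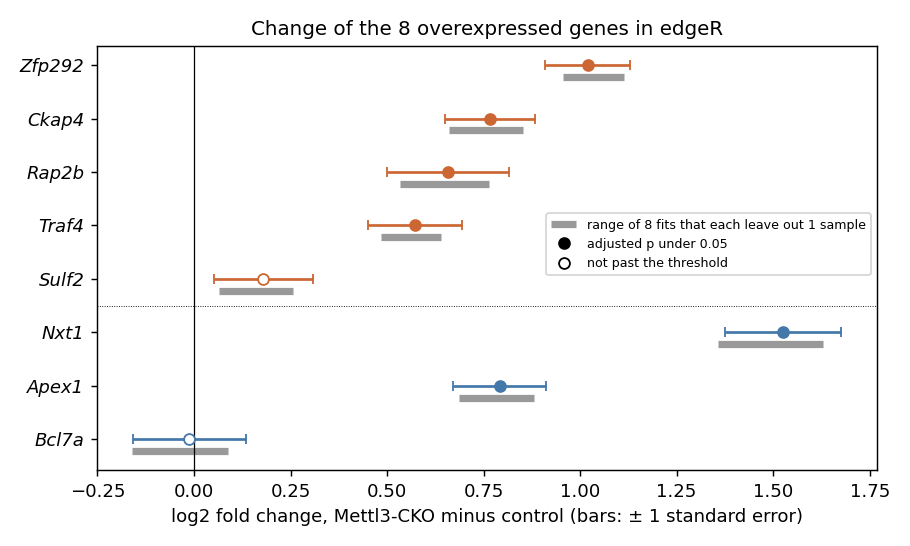
Log2 fold change of the 8 overexpressed genes in edgeR, with bars of 1 standard error, filled where the adjusted p was under 0.05, and grey bars for the range over the 8 fits that each left out 1 sample. *Zfp292* stays between 0.96 and 1.11, and the ranges of *Sulf2* (0.07 to 0.26) and *Bcl7a* (-0.16 to 0.09) lie near or across 0.

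To ask whether the 5 genes changed by unequal amounts, the log2 ratio of counts of each pair was compared within samples, which needs no scaling. *Ckap4* over *Sulf2* ran from -0.43 to 0.06 in controls and from 0.18 to 0.52 in *Mettl3*-CKO samples, a difference of 0.56 with no overlap (exact permutation test, two-sided p = 0.0286, the smallest that 4 against 4 allow, adjusted to 0.143 over 10 pairs). *Zfp292* over *Sulf2* differed by 0.82, *Zfp292* over *Traf4* by 0.44 and *Rap2b* over *Sulf2* by 0.45 (exact permutation p = 0.0571 for each, adjusted to 0.143). The other 6 pairs had exact permutation p-values between 0.143 and 0.686. This design could not pass 1 pair alone, whose p of 0.0286 would adjust to 0.286, and at least 6 pairs at that p were needed. The adjusted values therefore say nothing of whether the 5 genes changed by equal amounts.

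Levels of different genes were set side by side only per length, as FPKM from the counts, the deposited gene length and the library total. In controls *Ckap4* came first (28.2 ± 1.88 FPKM), followed by *Zfp292* (25.6 ± 1.40), *Traf4* (20.2 ± 2.72), *Sulf2* (17.9 ± 3.27) and, far below, *Rap2b* (1.11 ± 0.0837). The ranges of *Ckap4* and *Zfp292* overlapped, as did those of *Traf4* and *Sulf2*, while the ranges of *Zfp292* and *Traf4* did not. In *Mettl3*-CKO samples *Zfp292* (52.4 ± 7.83 FPKM) and *Ckap4* (48.2 ± 8.88) had overlapping ranges, above those of *Traf4* (30.4 ± 4.09) and *Sulf2* (20.4 ± 2.51), and *Rap2b* stood at 1.76 ± 0.372. Against all tested genes, *Zfp292* moved from the 88.3rd percentile of mean FPKM in controls to the 95.7th, *Ckap4* from the 89.4th to the 95.1st and *Rap2b* from the 22.6th to the 29.7th. The order depends on the length used. With the 2078 bases of its coding mRNA in place of the deposited 3292, *Traf4* was at 32.1 FPKM in controls, above *Ckap4*. In *Mettl3*-CKO samples *Traf4* was then at 48.1 FPKM, beside *Ckap4* at 48.2, so its place below *Ckap4* there also rests on the deposited length. The low level of *Rap2b* rests on a length in which most bases overlap *B430305J03Rik*. Any reads left uncounted in that overlap would make the level and percentile of *Rap2b* too low, which was not tested.

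Within the groups the genes moved together in some samples and apart in others. In *Mettl3*-CKO replicate 2 *Rap2b* lay 0.35 above its group mean on the log2 CPM scale and *Zfp292* lay at -0.31, while in *Mettl3*-CKO replicate 1 all 5 lay above theirs, by 0.09 to 0.31, and in replicate 4 all 5 lay below, from -0.33 to -0.0069. In control replicate 1 *Sulf2* was at -0.39 and *Traf4* at 0.19. Since the groups part for 4 genes, co-variation was computed over the 8 samples on deviations from the group means, for 10 pairs, with exact permutation within groups.

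**Figure D4:**
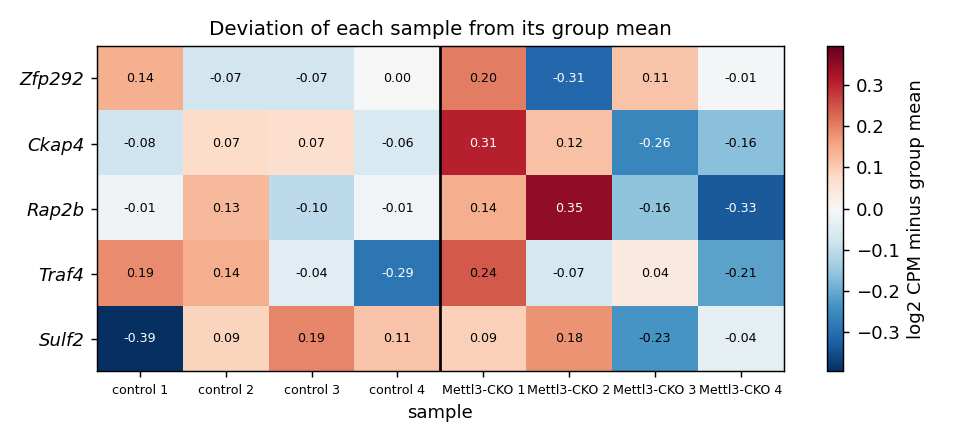
Log2 CPM of each gene in each sample minus the mean of its group, in red above and blue below the mean. *Zfp292* and *Rap2b* differ in sign in *Mettl3*-CKO replicate 2 (-0.31 and 0.35), and all 5 genes are above their mean in *Mettl3*-CKO replicate 1 and below it in replicate 4.

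The closest pair was *Ckap4* and *Rap2b*, with Pearson's r of 0.71 (exact permutation p = 0.269, adjusted 0.527, n = 8) and Spearman's rho of 0.88 (exact permutation p = 0.153, adjusted 0.535). Without the 2 samples farthest from the median of *Ckap4*, r was 0.80. *Ckap4* and *Sulf2* had r = 0.61 (exact permutation p = 0.0642, adjusted 0.527) and rho = 0.62 (p = 0.104, adjusted 0.535), with r = 0.59 without the 2 farthest samples. *Zfp292* and *Sulf2* leaned the opposite way, with r = -0.59 (exact permutation p = 0.108, adjusted 0.527) and rho = -0.52 (p = 0.220, adjusted 0.535), and r = -0.94 without the 2 farthest samples. Those 2 samples were *Mettl3*-CKO replicates 1 and 2, so that mostly controls were left. Within controls alone r was -0.94, and within *Mettl3*-CKO samples -0.52. Both values of -0.94 include control replicate 1, the control farthest from the group mean in both genes (*Zfp292* at 0.14, *Sulf2* at -0.39). In the other controls *Zfp292* lay between -0.071 and 0.0008 and *Sulf2* between 0.09 and 0.19. The other 7 pairs had r between -0.42 and 0.45. No pair passed the correction, so co-variation beyond the group difference was not detected with 8 samples.

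The 3 genes with the most similar profile were sought for each member among 11414 other tested genes with a mean of at least 3 on the log2 CPM scale, by the root mean square (RMS) difference over the 8 samples of log2 CPM centred on each gene's mean. Most of such a profile is the step between groups where a gene rose. For *Zfp292* they were *Antxr2*, an anthrax toxin receptor (RMS 0.080), and the mitochondrial ribosomal protein genes *Mrps2* (0.080) and *Mrpl14* (0.096). For *Ckap4* they were *Lzts3* (0.058), *Ajuba*, a LIM protein (0.067), and *Kbtbd11* (0.089). For *Rap2b* they were *Bora*, an activator of Aurora A kinase (0.092), the transcription factor gene *Nfil3* (0.098) and *Trmt61a*, a tRNA methyltransferase (0.113). For *Traf4* they were the sodium pump subunit gene *Atp1b3* (0.070), *Utp3* (0.074) and the 14-3-3 gene *Ywhah* (0.074). For *Sulf2* they were the receptor phosphatase gene *Ptprs* (0.033), the nucleoporin gene *Nup210* (0.045) and *Pfas*, a purine synthesis enzyme (0.045).

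Relatives and partners of the 5 genes were read from lists of 82 genes, the 3 other overexpressed genes included. Of the 80 tested, 10 were called higher and 5 lower, and their median log2 fold change was -0.03, beside -0.01 over all tested genes and 6.49% of them called higher and 4.05% lower. Each value below is a log2 fold change with its SE and adjusted p from edgeR.

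Of the 2 paralogs of *Zfp292*, *Rlf* rose from 105 ± 8.17 to 149 ± 13.4 CPM (0.50 ± 0.09 SE, adjusted p = 0.00563), while *Zfp654* did not pass the test (-0.14, adjusted p = 0.411). *Rlf* was at 96.9 to 114 CPM in controls and at 130 to 159 CPM in *Mettl3*-CKO samples. Of 14 genes that shape the endoplasmic reticulum, the compartment of *Ckap4*, edgeR called 0 higher, with 1 at an unadjusted p under 0.05, while DESeq2 called 0 and voom 2, and *Reep3*, of a family of membrane-curving proteins, fell (-0.52 ± 0.10 SE, adjusted p = 0.00861). The median of these 14 was -0.03.

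Among 5 Rap GTPases, *Rap2b* was called and the other 4 were not, by edgeR, DESeq2 or voom (in edgeR 1 of the 4, *Rap2a*, was at an unadjusted p under 0.05). *Rap2a* and *Rap2c*, its nearest relatives, had log2 fold changes of 0.26 and 0.18 (adjusted p = 0.145 and 0.250), and *Rap1a* and *Rap1b* of -0.06 and -0.02. Of 6 exchange factors, which load Rap proteins with GTP, and of 6 effectors, 0 were called by edgeR, DESeq2 or voom. In edgeR 1 gene of each list was at an unadjusted p under 0.05. Of 6 GTPase-activating proteins, which switch Rap proteins off, *Sipa1* rose from 17.6 ± 2.87 to 35.3 ± 4.75 CPM (1.01 ± 0.13 SE, adjusted p = 0.000921). Its lowest *Mettl3*-CKO sample was at 31.0 CPM and its highest control at 21.1 CPM. Of 6 other TRAF genes, *Traf6*, a ubiquitin ligase of receptor signalling, rose (0.36 ± 0.10 SE, adjusted p = 0.0333), a call lost in 6 of the 8 fits that left out 1 sample.

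The heparan sulfate genes around *Sulf2* moved in both directions. *Sulf1*, which encodes the other 6-O-endosulfatase, was at 80.0, 63.7, 62.1 and 51.9 CPM in controls and at 22.2, 31.1, 33.5 and 31.7 CPM in *Mettl3*-CKO samples. All *Mettl3*-CKO samples lay below all controls, and *Sulf1* fell by 1.12 on the log2 scale (SE 0.15, adjusted p = 0.000888). Per length, *Sulf1* stood at 5.66 ± 0.918 FPKM in controls and at 2.62 ± 0.435 FPKM in *Mettl3*-CKO samples, below *Sulf2* at 17.9 and 20.4 FPKM. Of 19 tested enzymes of heparan sulfate synthesis 3 rose and 2 fell, among them the chain polymerase gene *Ext2* (0.38) and the N-deacetylase/N-sulfotransferase gene *Ndst3* (0.37) upwards, and the sulfotransferase genes *Hs3st3b1* (-0.68) and *Hs6st3* (-0.57) downwards, with adjusted p between 0.00895 and 0.0406. Leaving out 1 sample ended the call of *Ext2* in 4 of 8 fits, of *Ndst3* in 5, of *Hs6st3* in 6 and of the fifth gene, *Hs6st1*, in 5. Of 12 core proteins, the syndecan gene *Sdc1* rose from 10.9 ± 1.1 to 26.9 ± 6.84 CPM (1.30 ± 0.17 SE, adjusted p = 0.000751) and the glypican gene *Gpc3* rose (0.59 ± 0.12 SE, adjusted p = 0.0106). *Gpc4* fell (-0.42 ± 0.11 SE, adjusted p = 0.0268), a call lost in 5 of 8 such fits.

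**Figure D5:**
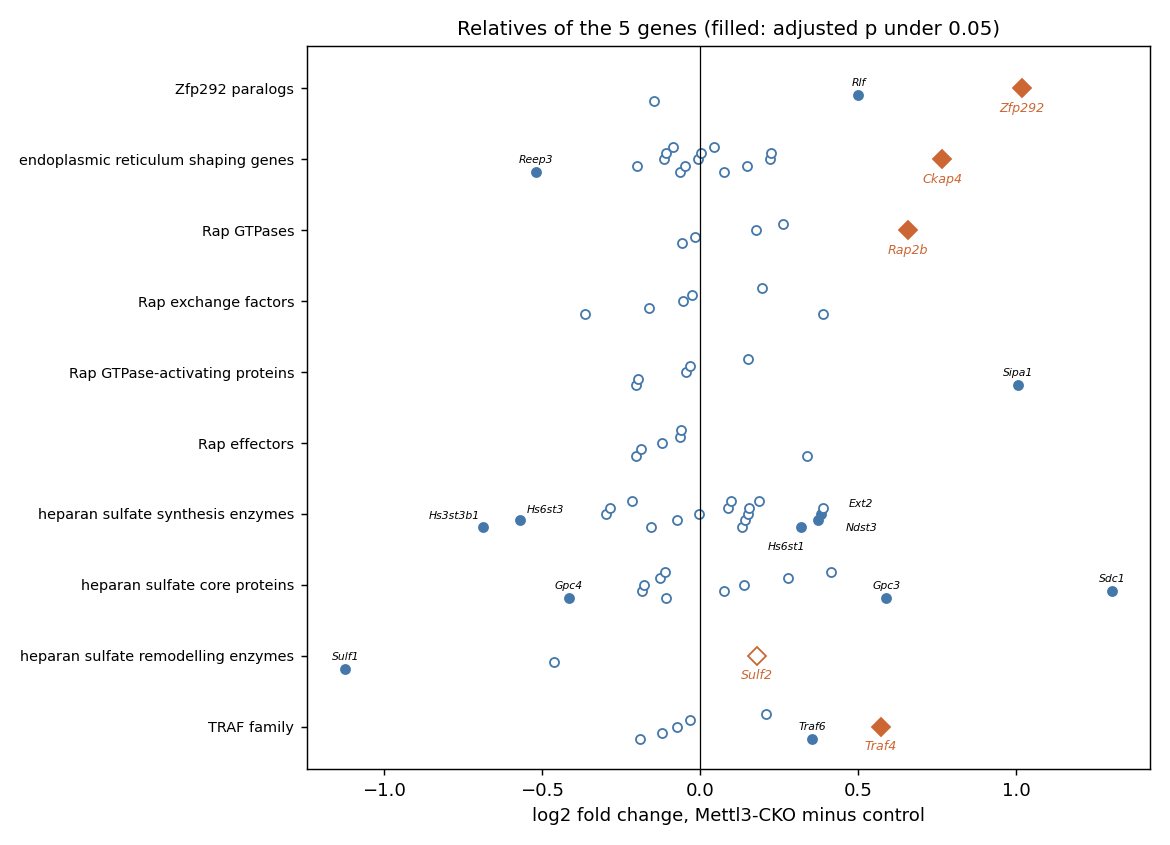
Log2 fold change of the tested relatives of the 5 genes by list (circles, filled where the adjusted p was under 0.05), with the 5 genes as diamonds on the row of their own family. *Sulf1* lies at -1.12 on the row where *Sulf2* lies at 0.18, and the Rap GTPases other than *Rap2b* lie between -0.06 and 0.26.

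Markers of cell types moved between the groups as well. Of 10 markers of RPCs and the cell cycle, 4 were called higher, and they summed to 1388 to 1804 CPM in controls and to 1910 to 2563 CPM in *Mettl3*-CKO samples. Of 10 rod markers 6 were called lower, with sums of 3629 to 4867 CPM against 2036 to 3410 CPM. Müller markers overlapped (1393 to 1982 against 1336 to 1562 CPM), with 1 called higher and 1 lower of the 8 tested. Of 10 endothelial markers 8 were called lower, and the median log2 fold change over the 10 was -1.32. Their sums overlapped (563 to 663 against 543 to 649 CPM), but a sum is weighted to the most abundant markers and does not show the typical one. Of 3 tested erythrocyte markers 2 were called lower (sums of 13.99 to 26.3 against 4.28 to 7.25 CPM), and of 5 pericyte markers 2 lower and 1 higher (20.9 to 66.8 against 15.3 to 17.96 CPM). Of 6 tested pigment epithelium markers 3 were called lower and 1 higher, and the sums met only at the edge (69.7 to 95.8 against 49.4 to 69.8 CPM). Of 6 tested lens markers 4 were called lower, but the sums overlapped (4.66 to 4514 against 4.97 to 20.1 CPM). The 4514 CPM were in control replicate 4, while control replicates 2 and 3 were at 8.75 and 4.66 CPM. Sums of microglia markers overlapped (44.2 to 142 against 77.4 to 116 CPM). No listed marker was at 0 in all samples. The part of these shifts in the rise of *Zfp292*, *Ckap4*, *Rap2b* and *Traf4* was not tested. With control replicates 1 and 4 both left out, edgeR called 3 of the 5 genes higher, beside 1175 of all 18807 genes tested in that fit. *Rap2b* then had an adjusted p of 0.0502.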

How the data were processed

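RNA-seq of 4 *Mettl3*-CKO and 4 control retinal samples was used, grouped by sample title. The deposited table holds whole-number counts that the authors made by filtering reads, aligning to GRCm38 (Hisat2) and counting per gene (featureCounts); annotation release and strand setting are not given in the sources used here. All 5 members have the same coordinates in GENCODE vM21, as have 53499 of the 54409 genes found there.

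Counts were filtered (filterByExpr), TMM scaled and tested with edgeR 4.0.16 in R 4.3.3 (glmQLFTest, group only, Benjamini-Hochberg, threshold 0.05). The SE is the absolute log2 fold change divided by the square root of F. Log2 CPM used a prior count of 2, and ratios added 0.5 to each count. Alternatives were DESeq2 1.42.0, limma 3.58.1 voom with quality weights, 3 other scalings, no filter, a replicate block and each sample left out; leaving out control replicates 1 and 4 together was added after seeing the data. On simulated counts for this comparison edgeR called 96.8% of tested genes changed 4-fold and 68.4% of those changed 2-fold, with 17998 genes entering and 17679 tested. It also called 10 unchanged genes, and changes smaller than 2-fold were not simulated. Totals of 16227095 to 20281517 counts put 3 counts at 0.148 to 0.185 CPM; such limits cover counting error only. The lowest chi-square between samples of a group was 5.45 per gene, so none was counted as a duplicate. No label says how many pups a sample holds, and p-values measure the spread between these samples.

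The transcript used per gene was the APPRIS principal one, then one tagged CCDS, then the longest. Named genes are the members, *Mettl3*, the other overexpressed genes, up to 4 called genes per family list by fold change, and 3 nearest profiles per member. Members and lists were chosen with earlier results of these data known.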

Additional observations from a re-analysis of the deposited data

Results flagged for a closer look

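Dixon's test at its 95% critical value asked, in each group of 4 samples and on the log2 CPM scale, whether the highest or lowest sample stood apart, for the members, *Mettl3*, *Bcl7a* and the relatives called in edgeR. Of 44 groups 2 held such a sample, where chance gives about 2.2, and no group of a member was among them. *Hs6st1*, a heparan sulfate 6-O-sulfotransferase gene outside the rule for naming genes, was low in *Mettl3*-CKO replicate 3, at 5.45 against 5.57 to 5.59 in the other 3. *Hs3st3b1* was high in control replicate 1, at 6.18 against 5.78 to 5.83.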

How the results depend on the processing

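Under 7 alternatives with all samples, *Zfp292*, *Ckap4*, *Rap2b* and *Traf4* kept their direction and their call, and *Sulf2* stayed above 0 without one (log2 fold change 0.05 to 0.19). *Mettl3* was called with DESeq2 (-0.38) and voom (-0.39). Genes called over the whole table moved most with voom, to 2142 higher and 1568 lower from 1168 and 729, and DESeq2 called 1476 and 1019; the cause was not tested. Over the fits that left out 1 sample, genes higher numbered 509 to 1882 (lowest when *Mettl3*-CKO replicate 1 was dropped, highest when control replicate 1 was), genes lower from 185 to 1289 and members higher from 2 to 4, with 2 without *Mettl3*-CKO replicate 1. In these fits *Zfp292* ran from 0.96 to 1.11 and *Ckap4* from 0.66 to 0.85, called in 8 of 8, *Rap2b* from 0.53 to 0.76 (called in 5), *Traf4* from 0.49 to 0.64 (called in 7), *Sulf2* from 0.07 to 0.26 (called in 0) and *Mettl3* from -0.49 to -0.31 (called in 1). With control replicates 1 and 4 left out together, *Rap2b* was at 0.64 and not called.

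*Bcl7a* turned sign with the replicate block (0.0224) and without control replicate 3 (0.0787), control replicate 4 (0.0887) or *Mettl3*-CKO replicate 3 (0.0031), and reached -0.1595 without control replicate 1. The *Rap2b* over *Traf4* ratio difference ran from -0.079 to 0.15, below 0 without control replicate 1 (-0.0049) and *Mettl3*-CKO replicate 2 (-0.079). Both groups carry replicate numbers 1 to 4, and same-numbered deviations correlated at -0.11, 0.22, -0.11 and 0.25. Control replicates 2 and 4 correlated best with the *Mettl3*-CKO sample of their own number, and control replicates 1 and 3 did not. These 4 values cannot tell whether same-numbered samples shared a litter, so pairing was neither shown nor excluded. With the replicate block 1198 genes were higher and 660 lower, 4 members among the higher. The log2 fold changes were then 1.01 for *Zfp292* and 0.75 for *Ckap4*. The block ended the calls of *Hs6st1* (adjusted p = 0.0512) and *Hs6st3* (0.0632), and testing without the filter ended those of *Hs6st1* (0.0655), *Hs6st3* (0.0958) and *Gpc4* (0.0656). Depth limits *Rap2b* most, at 124 to 259 counts per sample.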
